A study of Mus musculus with 2 samples.

Results

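The 8 genes described here are Ngfr, Erbb3, Sox10, S100b, Stmn2, Gap43, Moxd1 and L1cam, of 18194 genes on the arrays, and most of them are markers of Schwann cells, the glia of peripheral nerves, or of the neural crest from which those cells come. All 16 probe sets that the platform annotation gives to 1 of these symbols alone are reported. A probe set is a group of short oligonucleotides that reads 1 or more transcripts of a gene. The genes were chosen from earlier results of the same 2 arrays, partly by how far their signals differed between the genotypes, so their ratios are a description and carry no test. In knockout cells 6 of the 8 had at least 2-fold lower signal than in heterozygous cells, Sox10 differed by less, and Gap43 was 2.16-fold higher. With a pseudocount of 50 in place of a background floor these counts were 4 lower and 0 higher, and 4 were lower with the mean over each gene's probe sets; Ngfr and Moxd1 passed 2-fold under every setting tried.

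The arrays compare Ebf2-/- with Ebf2+/- osteoblastic cells from tibia and femur of C57Bl/6 embryos (E18.5). Ebf2 encodes one of the EBF transcription factors. Both genotypes carry a lacZ marker in the Ebf2 locus: cells were loaded with FDG, which fluoresces once beta-galactosidase cleaves it, sorted for the marker, and expanded without passaging in alpha MEM with 10% serum. The heterozygote keeps 1 intact copy of Ebf2 and stands as the control, and no wild-type cells were analysed here. There was 1 array per genotype; the labels name 3 mice for each and leave unsaid whether their RNA was pooled. Without replicates there is no p-value, and every ratio below lacks a replicate check.

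Schwann cells arise from neural crest cells that migrate out of the dorsal neural tube and follow growing axons into the limb. Their precursors depend on neuregulin, a growth factor on axons that the receptor ERBB3 binds, and the transcription factor SOX10 maintains the glial lineage and the transcription of Erbb3. The low-affinity neurotrophin receptor NGFR and the calcium-binding protein S100B are widely used to mark these cells. Neither is exclusive to them: NGFR also marks stromal stem cells of human bone marrow, and S100B is made by chondrocytes.

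Values are the authors' MAS5 signals, linear intensities that had been scaled to equal average on both arrays. A floor for each array, 23.8 in the knockout and 17.8 in the heterozygote, was the 95th percentile of 86 probe sets for odorant, pheromone and taste receptors. Signals under a floor were raised to it, so where 1 array alone was above its floor the fold is a bound, written "at least". Probe sets of the same gene, where above both floors, had log2 ratios that varied by 0.44 (pooled SD over 4119 genes), which is 1.36-fold. It describes spread between probe sets within the arrays, which may read different transcripts, and leaves out variation between animals. Over 11785 genes above a floor, the median log2 ratio was 0.03. Scaling to the 18 bacterial and phage spike-in probe sets, whose mean log2 ratio was 0.18 ± 0.15 (SD), lowers every ratio by that amount; it turns the 408 genes at least 2-fold lower and 742 at least 2-fold higher into 625 and 528, with a median log2 ratio of -0.14. The 3' over 5' signal ratio, which grows as RNA degrades, was 2.79 in the knockout and 1.97 in the heterozygote for beta-actin, and 1.60 and 1.30 for Gapdh.

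In the knockout, 6 of the 8 genes passed 2-fold lower, as did 3.46% of all genes above a floor, and 1 passed 2-fold higher, as did 6.30%. Because the genes were chosen on this contrast, nothing is read from that difference. Their median log2 ratio was -1.71. By probe set, 14 of 16 were above a floor, 8 of them at least 2-fold lower (3.50% of all probe sets above a floor) and 1 at least 2-fold higher (6.49%). Before any floor, 13 of the 16 read lower in the knockout and 3 higher, which were the probe set of Gap43 and both dimmer probe sets of Sox10. In tissue or cell RNA, fewer cells of a type and less RNA per cell cannot be told apart.

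**Figure D1:**
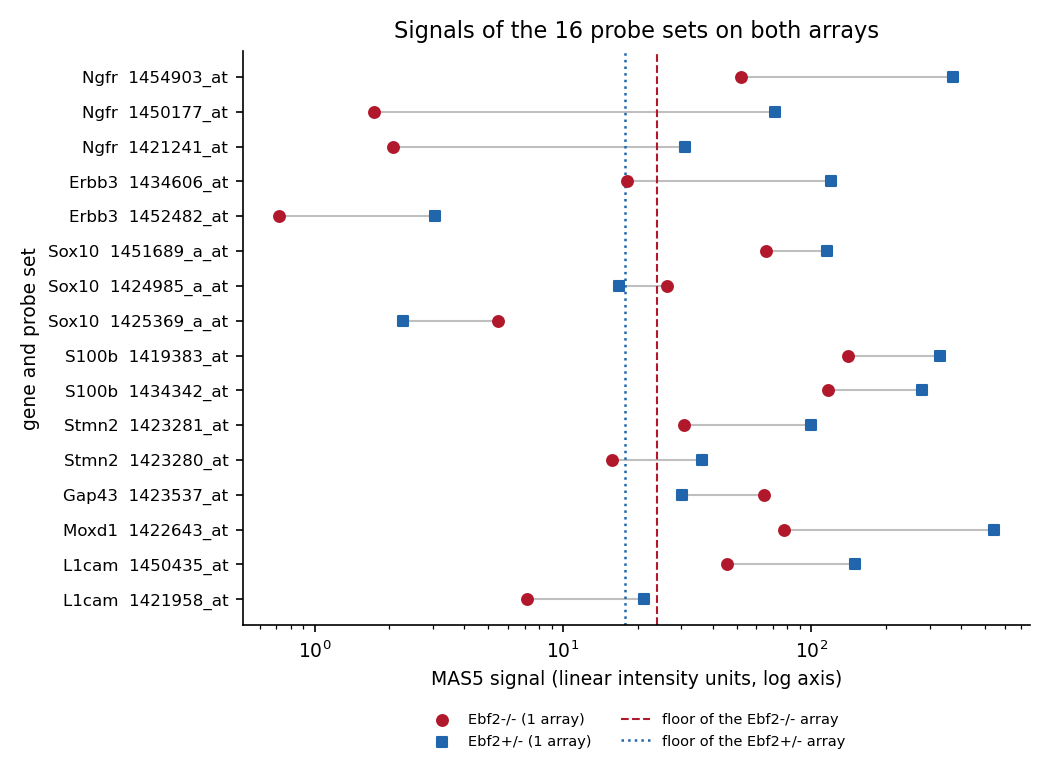
MAS5 signal (log axis) of each of the 16 probe sets on the Ebf2-/- array (red circles) and the Ebf2+/- array (blue squares), 1 array per genotype, with the floor of each array as a vertical line. Knockout signals lie left of heterozygote signals for 13 probe sets, and S100b is the gene with 2 probe sets above both floors.

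Ngfr encodes p75, the receptor that binds all neurotrophins with low affinity. Its brightest probe set, 1454903_at, read 52.1 in the knockout and 372 in the heterozygote, a signal 7.14-fold lower in the knockout. Among the 10057 genes above both floors this was the 8th lowest ratio. The other probe sets were above the floor in the heterozygote alone. Probe set 1450177_at read 1.74 in the knockout and 71.4 in the heterozygote, at least 3.00-fold lower. Probe set 1421241_at read 2.07 in the knockout and 30.9 in the heterozygote, at least 1.30-fold lower. All 3 thus had the lower signal in the knockout, and the size of the difference can be measured on 1 of them only. The log2 ratio of Ngfr, -2.84 on the brightest probe set, was -1.60 as the mean over all 3. That mean takes the bounds for 1450177_at and 1421241_at, whose knockout signals were raised to the floor. Before any floor, their log2 ratios were -5.36 and -3.90.

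Erbb3 encodes the neuregulin receptor of the Schwann cell lineage, which has little kinase activity of its own and signals in a pair with ERBB2. Probe set 1434606_at read 18.0 in the knockout, under the floor, and 120.0 in the heterozygote, at least 5.04-fold lower. The other, 1452482_at, read 0.715 in the knockout and 3.06 in the heterozygote, both far below the floors, and gives no fold. Erbb3 was therefore above the floor in the heterozygote alone, and its mean log2 ratio over both probe sets was -0.96, under 2-fold. That mean takes 0.42 for 1452482_at, which comes from the unequal floors alone. Before any floor, the log2 ratio of that probe set was -2.10.

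Sox10, the glial and melanocyte transcription factor, differed least of the 8. Its brightest probe set, 1451689_a_at, read 65.6 in the knockout and 116 in the heterozygote, 1.76-fold lower and above both floors. The remaining Sox10 probe sets pointed the other way and were dim. Probe set 1424985_a_at read 26.2 in the knockout and 16.8 in the heterozygote, at least 1.47-fold higher, with the knockout value close to its floor. Probe set 1425369_a_at read 5.49 in the knockout and 2.26 in the heterozygote, below both floors. The mean log2 ratio of Sox10 over its 3 probe sets was 0.05, and -0.23 with the higher of the 2 floors on both arrays, so its direction depends on how dim probe sets are treated.

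S100b encodes a small calcium-binding protein of glia, and it alone of the 8 genes had 2 probe sets above both floors. Probe set 1419383_at read 141 in the knockout and 330.3 in the heterozygote, 2.35-fold lower, and 1434342_at read 117 in the knockout and 279 in the heterozygote, 2.40-fold lower. The log2 ratios, -1.23 and -1.26, differed by less than the pooled SD between probe sets. With the pseudocount of 50 the log2 ratio was -0.997, just under 2-fold.

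Stmn2 and Gap43 are proteins of growing axons, and they differed in opposite directions. Stmn2, also called SCG10, destabilises microtubules in the growth cone. Its probe set 1423281_at read 30.6 in the knockout and 99.4 in the heterozygote, 3.25-fold lower, although the knockout value stood only 1.28 times above its floor. Probe set 1423280_at of Stmn2 read 15.8 in the knockout and 36.2 in the heterozygote, at least 1.52-fold lower. With the pseudocount the log2 ratio of Stmn2 was -0.89. Gap43 encodes a membrane-bound phosphoprotein of growth cones that immature Schwann cells also make. Its 1 probe set, 1423537_at, read 64.7 in the knockout and 30.0 in the heterozygote, 2.16-fold higher. The log2 ratio of Gap43 was 0.93 with spike-in scaling and 0.52 with the pseudocount, both under 2-fold.

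Moxd1 encodes a copper-dependent monooxygenase-like protein related to dopamine beta-hydroxylase. Its single probe set, 1422643_at, read 77.3 in the knockout and 544 in the heterozygote, 7.04-fold lower and the 9th lowest ratio of the genes above both floors. With the pseudocount its log2 ratio was -2.22, against -2.82 as reported. L1cam encodes an adhesion molecule of the immunoglobulin superfamily that lies on axons and on Schwann cells that do not form myelin. Its probe set 1450435_at read 45.9 in the knockout and 150.5 in the heterozygote, 3.27-fold lower. The second L1cam probe set, 1421958_at, read 7.17 in the knockout and 21.1 in the heterozygote; the heterozygote value is under the floor of the knockout array, so no fold is given. The log2 ratio of L1cam, -1.71 on the brighter probe set, was -0.77 as the mean over both, under 2-fold, and -0.86 with the higher floor on both arrays as well. The mean of -0.77 takes 0.17 for 1421958_at, which comes from raising its knockout signal to the floor. Before any floor, the log2 ratio of that probe set was -1.56.

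**Figure D2:**
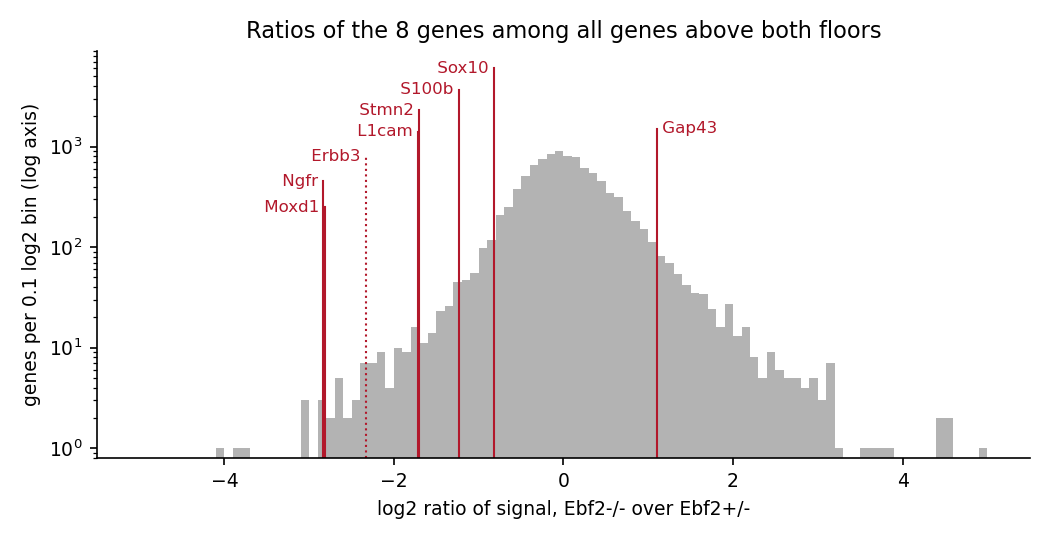
Number of genes per 0.1-wide bin (log axis) of the log2 ratio of Ebf2-/- over Ebf2+/- signal, for the 10057 genes above both floors, with the brightest probe set of each of the 8 genes marked by a red line (dotted for Erbb3, a bound). Ngfr and Moxd1 lie in the lower tail at 7.14-fold and 7.04-fold lower, Sox10 at 1.76-fold lower, and Gap43 alone on the higher side at 2.16-fold.

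Promoter sequence was examined for the features it shares with EBF and SOX binding. RefSeq promoter windows (GRCm38.p6, 250 bases before to 50 after the start site) were matched for 4 of the 8 genes, Ngfr, S100b, Moxd1 and, with 2 overlapping windows, L1cam. Searched on both strands were TCCCNNGGG, a core of the site that EBF proteins bind, and the SOX motifs ACAAAG and ACAATG. The EBF letters were found in 6.56% of all 32851 windows, ACAAAG in 18.7% and ACAATG in 12.6%. Among the windows of the 4 genes, 1 match was found, the EBF letters in S100b, with its first base at -92 from the start site. That match describes these letters and is not a known binding site. The windows also differ in base composition: the L1cam windows hold 25 and 22 CG dinucleotides, Ngfr 23, Moxd1 13 and S100b 3, against a median of 7 over all windows. The window of S100b is shown for its match, in capitals, and those of Ngfr and Moxd1 because these genes had the lowest ratios of the 7 above both floors. The S100b window lies at chr10:76253586-76253885 on the plus strand, the Ngfr window at chr11:95587649-95587948 on the minus strand, and the Moxd1 window at chr10:24223267-24223566 on the plus strand. Each reads 5′ to 3′ along its gene.
S100b: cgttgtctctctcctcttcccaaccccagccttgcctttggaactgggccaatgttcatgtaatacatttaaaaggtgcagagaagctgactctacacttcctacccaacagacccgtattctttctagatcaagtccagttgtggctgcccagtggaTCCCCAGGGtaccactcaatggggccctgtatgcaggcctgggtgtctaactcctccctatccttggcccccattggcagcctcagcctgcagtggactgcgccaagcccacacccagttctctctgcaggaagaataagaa
Ngfr: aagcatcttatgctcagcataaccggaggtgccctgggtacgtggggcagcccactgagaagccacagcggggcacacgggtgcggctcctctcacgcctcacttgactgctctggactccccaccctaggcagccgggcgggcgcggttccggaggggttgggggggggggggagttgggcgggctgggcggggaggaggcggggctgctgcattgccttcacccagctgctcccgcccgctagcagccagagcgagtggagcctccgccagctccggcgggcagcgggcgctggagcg
Moxd1: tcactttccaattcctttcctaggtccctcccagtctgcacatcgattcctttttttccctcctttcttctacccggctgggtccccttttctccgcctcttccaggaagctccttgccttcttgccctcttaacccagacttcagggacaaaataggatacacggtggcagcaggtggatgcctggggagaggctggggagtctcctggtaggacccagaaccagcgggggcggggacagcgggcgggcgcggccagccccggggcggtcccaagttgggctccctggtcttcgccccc

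Other genes listed for the same lineages did not all go with the 8. Of 19 further Schwann cell and glial genes, 16 had a probe set of their own and 13 were above a floor. At least 2-fold lower were 3, at least 2-fold higher was 1, and 9 differed by less, with a median log2 ratio of -0.17 beside 0.03 over all genes. Cdh19, an adhesion molecule of Schwann cell precursors, read 25.3 in the knockout and 97.8 in the heterozygote, 3.86-fold lower. Sox2, a transcription factor of immature glia, read 8.59 in the knockout and 58.0 in the heterozygote, at least 2.44-fold lower. Mbp, a myelin protein, read 14.1 in the knockout and 54.5 in the heterozygote, at least 2.29-fold lower. Sox2 and Mbp were thus below the floor in the knockout, and Cdh19 just above it. Scn7a, a sodium channel-like protein of Schwann cells among other cells, went the other way, with 63.5 in the knockout and 17.8 in the heterozygote, at least 3.56-fold higher. Fabp7, a fatty acid binding protein of Schwann cell precursors, singled out after its values were seen, read 40.5 in the knockout and 64.4 in the heterozygote. Pmp22, also singled out after its values were seen, is the brightest gene of the list. It read 2568 in the knockout and 1701 in the heterozygote, 1.51-fold higher. The summed signal of the list, much of it from Pmp22, was 3853 in the knockout and 3390 in the heterozygote. Without Pmp22 the summed signal was lower in the knockout, so the direction of the sum rests on that gene. Pou3f1, Gfap and Mag were below both floors.

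Neural crest genes, 14 of 15 with a probe set and 10 above a floor, had a median log2 ratio of -0.57. With the mean over probe sets it was -0.10, and -0.26 with that mean and the higher of the 2 floors on both arrays. Msx1, a homeobox factor, was 2.53-fold lower, with 54.5 in the knockout and 138 in the heterozygote. Snai1, a repressor that acts when crest cells leave the epithelium, was 4.48-fold higher, with 267 in the knockout and 59.7 in the heterozygote. The other 8 differed by less than 2-fold or gave a bound under it, among them Ets1 with 69.2 and 135, and Zic1 with 750.1 and 1274, in knockout and heterozygote. Foxd3, an early crest factor singled out after its values were seen, read 10.9 in the knockout and 35.9 in the heterozygote, at least 1.51-fold lower. Pax3, Pax7, Sox8 and Ednrb were below both floors. Which cells made the RNA of the crest genes above a floor was not tested.

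Markers of the other crest derivatives were mostly dim. Of 7 melanocyte genes, Dct, Tyr, Tyrp1, Pmel and Mlana were below both floors; Mitf read 53.5 in the knockout and 83.5 in the heterozygote, and Slc45a2 26.2 and 7.32. Of 15 neuron genes 10 were below both floors, including the neurofilament genes Nefl, Nefm and Nefh. Uchl1, a ubiquitin hydrolase abundant in neurons, was 4.86-fold lower, with 41.8 in the knockout and 204 in the heterozygote. Syt1, Prph and Map2 were above the floor in the knockout alone, at 35.4, 28.4 and 28.0. The neuron list's median log2 ratio, 0.65, rests on these near-floor values and was -0.46 with the 99th percentile of the receptor probe sets as floor.

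**Figure D3:**
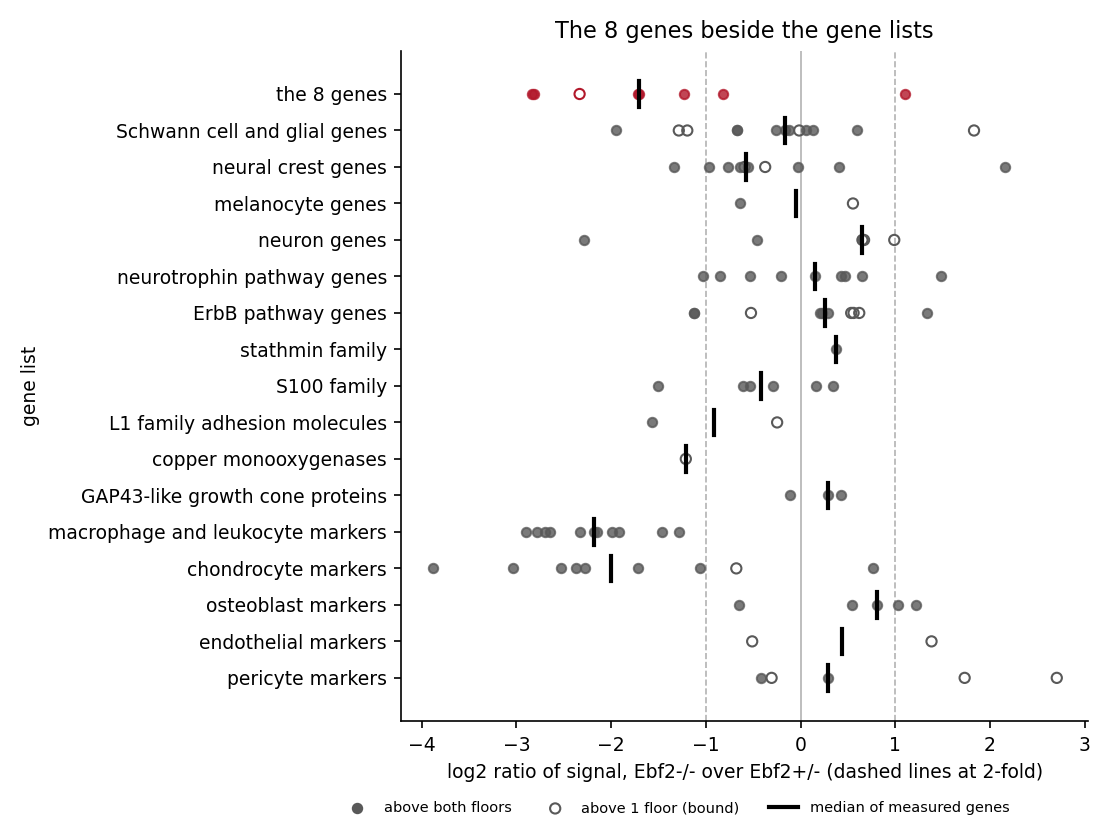
Log2 ratio of Ebf2-/- over Ebf2+/- signal for each gene with a fold, in the 8 genes (red) and 16 gene lists; open circles are bounds and black bars the medians of genes above a floor. The median of the 8 genes, -1.71, lies beside -0.17 for other Schwann cell and glial genes, -2.18 for macrophage and leukocyte markers and -2.0 for chondrocyte markers.

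Ligands and partners of the receptors were examined next. Of 15 neurotrophin pathway genes 9 were above both floors, of which 1 passed 2-fold in each direction, and the median log2 ratio was 0.16, or -0.02 with spike-in scaling. The neurotrophin Bdnf, a ligand of p75, read 80.4 in the knockout and 165 in the heterozygote, 2.05-fold lower. Ntrk3, the neurotrophin-3 receptor, read 51.0 in the knockout and 18.2 in the heterozygote, 2.80-fold higher, with the heterozygote value close to its floor. Ntrk2, the receptor of BDNF, read 57.7 in the knockout and 36.7 in the heterozygote, and Traf6, an adaptor of p75 signalling, 30.2 and 54.4.

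Of 15 ErbB pathway genes 10 were above a floor, with 2 past 2-fold lower, 1 past 2-fold higher and a median log2 ratio of 0.26. Erbb2, whose product pairs with ERBB3, went opposite to Erbb3: it read 114 in the knockout and 45.2 in the heterozygote, 2.53-fold higher. The ligands Hbegf, with 104 in the knockout and 226 in the heterozygote, and Tgfa, with 25.1 and 54.9, were 2.18-fold and 2.19-fold lower; both bind EGFR. The neuregulin genes Nrg1, Nrg3 and Nrg4 and the receptor gene Erbb4 were below both floors, and Nrg2, singled out after its values were seen, read 25.8 in the knockout and 15.4 in the heterozygote. Grb7, an adaptor that binds ErbB receptors, read 27.4 in the knockout and 3.62 in the heterozygote, at least 1.54-fold higher.

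Relatives of the other members varied. S100a1, a calcium-binding relative of S100b, read 95.2 in the knockout and 269.8 in the heterozygote, 2.83-fold lower. Of 6 other S100 genes above a floor it alone passed 2-fold; S100a4 read 3641 and 5553, S100a6 5006 and 7266, and S100a16 607 and 479, in knockout and heterozygote. Of the L1 family, Nrcam read 36.4 in the knockout and 108 in the heterozygote, 2.97-fold lower, Chl1 read 6.68 and 28.3, at least 1.19-fold lower, and Nfasc was below both floors. Pam, the peptide-amidating relative of Moxd1, read 22.9 in the knockout and 55.1 in the heterozygote, at least 2.32-fold lower, and Dbh, which encodes dopamine beta-hydroxylase, was below both floors. In the stathmin family Stmn1, made by dividing cells generally, read 1314 in the knockout and 1014 in the heterozygote, while Stmn3 and Stmn4 were below both floors. The growth cone proteins Basp1, Marcks and Marcksl1, which like GAP43 lie on the inner face of the membrane, were all under 2-fold apart (2908 against 3139, 4821 against 3950 and 1268 against 945, knockout against heterozygote).

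Among markers of other cell types, those of macrophages and leukocytes and of chondrocytes had a negative median log2 ratio, as the 8 genes did. Osteoblast, endothelial and pericyte markers had a positive median. The part of these cell types in the ratios of the 8 genes was not tested. Of 12 macrophage and leukocyte markers 11 were above both floors and all 11 were at least 2-fold lower; their summed signal was 1824 in the knockout and 7745 in the heterozygote, with Itgam below both floors. Ptprc, which encodes the leukocyte surface protein CD45, read 27.5 in the knockout and 205 in the heterozygote, and Msr1, Fcgr3 and Ctss were 6.89-fold, 6.48-fold and 6.25-fold lower. Of 14 chondrocyte markers 10 were above a floor and 7 at least 2-fold lower, with a summed signal of 4121 in the knockout and 15111 in the heterozygote; Matn1, Matn3, Snorc and Chad were below both floors. Col9a3, a cartilage collagen gene, read 58.0 in the knockout and 856 in the heterozygote, and Hapln1, Cnmd and Col9a1 were 8.19-fold, 5.76-fold and 5.18-fold lower. Comp, singled out after its values were seen, went the other way. It read 395 in the knockout and 232 in the heterozygote, 1.70-fold higher. The brightest probe sets of the 8 genes summed to 495 in the knockout and 1762 in the heterozygote. Of 8 osteoblast markers with a probe set, Col1a1, Col1a2, Sparc, Alpl and Sp7 were above both floors, and Ibsp, Phex and Dmp1 were below. Their summed signal, 45486 in the knockout and 26253 in the heterozygote, is carried by the collagen genes and Sparc. Col1a1 read 12784 in the knockout and 5478 in the heterozygote, 2.33-fold higher, Alpl 51.8 and 25.4, 2.04-fold higher, and Col1a2 15008 and 8597, under 2-fold. Sp7, the osteoblast transcription factor osterix, lay the other way, with 53.3 in the knockout and 83.7 in the heterozygote, 1.57-fold lower. Endothelial markers summed to 70.3 in the knockout and 61.6 in the heterozygote, and of the 6 only Tek, at least 2.61-fold higher, and Kdr, at least 1.42-fold lower, passed a floor. Of 6 pericyte markers 5 were above a floor, with a summed signal of 1442 in the knockout and 1127 in the heterozygote. Abcc9, a subunit of a potassium channel, read 116 in the knockout and 6.46 in the heterozygote, at least 6.53-fold higher. Kcnj8, its channel partner, read 59.3 in the knockout and 2.98 in the heterozygote, at least 3.32-fold higher, while Cspg4 read 139 and 185, and Rgs5 23.7 and 29.4.

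The genes whose signals lay nearest to those of a member, by Euclidean distance over its 2 log2 signals, were found among all genes above both floors. With 2 arrays this is a likeness of 1 pair of values. Nearest to Ngfr were Fcgr3 (distance 0.32), Laptm5 (0.36) and Fhdc1 (0.37), and Fcgr3 read 47.2 in the knockout and 306 in the heterozygote. Fcgr3 and Laptm5 are both on the list of macrophage and leukocyte markers above. Nearest to Moxd1 were Lcp1 (0.10), Fcer1g (0.32) and Mpeg1 (0.39), and Lcp1 read 82.9 in the knockout and 537 in the heterozygote. Nearest to S100b were Il18 (0.03), Pla2g4a (0.06) and Itga6 (0.08). For L1cam they were Kcnn4 (0.22), Fcho2 (0.25) and Ms4a6d (0.25), and for Stmn2 Dcaf12l1 (0.06), Pitpnc1 (0.07) and Rnf128 (0.09). For Sox10 they were Coasy (0.02), Slc17a5 (0.03) and Gpalpp1 (0.03), and for Gap43 Cd1d1 (0.03), Pcif1 (0.03) and Ccbe1 (0.06).

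**Figure D4:**
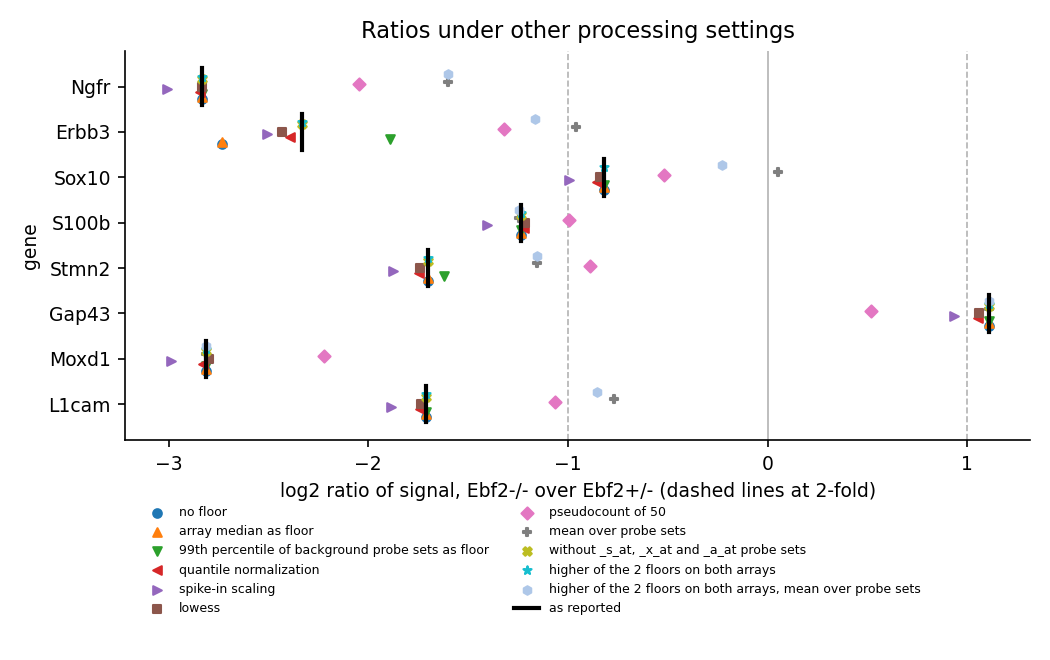
Log2 ratio of Ebf2-/- over Ebf2+/- signal of each of the 8 genes as reported (black bar) and under 11 other settings (symbols), with dashed lines at 2-fold. Ngfr and Moxd1 stay below -1 under all settings, Sox10 reaches 0.05 with the mean over probe sets, and Gap43 lies between 0.52 and 1.11.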

How the data were processed

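RNA of sorted osteoblastic cells was hybridised to Affymetrix Mouse Genome 430 2.0 arrays, 1 per genotype. The authors deposited signal intensities of 45101 probe sets. Per the submitters' processing notes the software was MAS5, of a version not given in the sources used here. Trimmed by 2% at each end, both arrays averaged 100.0, so they share 1 scale, and a shift common to most genes would not show. The number of arrays limits the precision.

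Symbols came from the platform annotation: 34958 probe sets had 1 symbol, 932 several and 9211 were not listed. The brightest probe set by mean log2 signal stood for each gene. Ratios are log2 of Ebf2-/- over Ebf2+/- after the floor, and 2-fold is the size used for counts. No test was run. Members, lists and rules were chosen with earlier results of these data known. The rule names all members, the 4 genes with the largest ratio from each list, and the 3 genes nearest to each member above both floors. Genes below both floors, Sparc, and genes said to be singled out after their values were seen stand outside it. Alternatives were other floors and scalings, a pseudocount of 50, and other choices of probe set. The procedure was tried on simulated data with 4-fold changes planted in brighter genes only. That trial does not cover genes as dim as Erbb3, Stmn2 and Gap43. Python 3.11.15, numpy 2.4.6, pandas 2.3.3, scipy 1.17.1 and statsmodels 0.14.6 were used.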

Additional observations from a re-analysis of the deposited data

How the results depend on the processing

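Of 11 alternatives, 2 (the higher floor on both arrays, alone and with the mean over probe sets) were added after seeing the data. Ngfr and Moxd1 passed 2-fold lower in the knockout under all 11. The count of members at least 2-fold lower, 6 as reported, was 4 with a pseudocount of 50, where S100b (log2 ratio -0.997) and Stmn2 (-0.89) left it, 4 with the mean over probe sets, where Erbb3 (-0.96) and L1cam (-0.77) left it, and 5 with that mean and the higher floor on both arrays. The count at least 2-fold higher, 1 as reported, was 0 with spike-in scaling and 0 with a pseudocount of 50. The members' median log2 ratio, -1.71, was -1.03 with the pseudocount, -1.05 with the mean over probe sets and -1.16 with that mean and the higher floor on both arrays. A pseudocount shrinks the ratio of dim genes by construction. The mean over probe sets includes sets at both floors, whose log2 ratio is 0.42 from the unequal floors alone, among them 1452482_at of Erbb3. It also includes 1421958_at of L1cam, whose 0.17 comes from the floor of the knockout array. Without probe sets ending in _s_at, _x_at or _a_at Sox10 has no value. Over all genes, the 408 at least 2-fold lower ranged from 134 with the pseudocount to 932 without a floor, and the 742 higher from 280 with the pseudocount to 997 without a floor. Of 247 other values over these alternatives 26 moved by more than the pooled SD between probe sets, and 0 of those past 2-fold changed sign. That SD comes from probe sets above both floors and does not cover near-floor signals. Sign changes under 2-fold were not counted, and some occurred. Among them were Sox10 (to 0.05), Ngfr probe set 1421241_at (to 0.07), the neuron list (to -0.46) and the neurotrophin list (to -0.02). Signals near the floor, as for Erbb3 and Stmn2 in the knockout, limit the size that can be measured. No paired analysis was possible because each genotype has 1 array.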
